A study of Mus musculus with 9 samples.

Results

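The hepatic genes that make, store and release glucose were followed across autophagy-deficient mouse livers. They are G6pc, Slc37a4 and Slc2a2 for glucose release, Pck1 and Fbp1 for gluconeogenesis, Gys2 and Pygl for glycogen synthesis and breakdown, and Ppp1r3b and Ppp1r3c for the regulation of both. They were taken from the deposited gene count table by symbol. All 9 were among its 24411 genes, and all 9 passed the filter on low counts that left 11199 genes for testing.

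The study asked how retention of KEAP1 by p62 shapes liver damage when autophagy fails. Poly(A) RNA was sequenced from 9 livers of mice at 3 months of age, kept on a C57BL/6 background and fed a standard diet ad libitum. The livers called cont. (n = 3) carried Atg7flox/flox alleles and no Cre. The Atg7-KO livers (n = 3) carried Atg7flox/flox and Alb-Cre, a Cre recombinase driven by the albumin promoter. It removes Atg7 from hepatocytes, and the study calls the knockout hepatocyte-specific. The Atg7-KO;p62-S351A livers (n = 3), S351A for short, carried Atg7flox/flox, Alb-Cre and a knock-in p62 allele on both copies, with alanine in place of the serine whose phosphorylation strengthens KEAP1 binding. The floxed Atg7 alleles are shared by all 3 groups. A mouse with the p62 mutation and intact autophagy was not analysed here, so S351A was compared only with the other 2 groups. Each library is a separate numbered mouse in the labels. For S351A replicates 2 and 3 the genotype field gives another residue number than the title, and the titles were followed.

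Between meals the liver keeps blood glucose up by breaking down glycogen and by building glucose from lactate, glycerol and amino acids. Both routes end in glucose 6-phosphate, which the G6PT transporter (Slc37a4) carries into the endoplasmic reticulum, where glucose 6-phosphatase (G6pc) frees glucose that leaves the cell through GLUT2 (Slc2a2). After a meal insulin turns the flow around, glycogen synthase (Gys2) stores glucose as glycogen, and regulatory subunits such as Ppp1r3b and Ppp1r3c hold protein phosphatase 1 on the glycogen particle, where it activates the synthase and switches off the phosphorylase (Pygl).

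The promoters of G6pc, Pck1 and Fbp1 are shown because these genes are textbook targets of glucagon and insulin and all fell in Atg7-KO livers. RefSeq promoter windows (build GRCm38.p6) of 300 bases were found for 7 of the 9 genes, and the 250 bases before the start site are printed 5′ to 3′ on the gene's own strand. Capitals mark matches to the motifs searched on both strands, which were TGACGTCA (the cAMP response element), TGACG (its core, also contained in the longer form), GTAAACA (FOXO factors), TGACNNNGC (the core of the antioxidant response element bound by NRF2) and TATAAA (the TATA box). The G6pc window lies at chr11:101367466-101367715 on the plus strand, that of Pck1 at chr2:173152823-173153072 on the plus strand, and that of Fbp1 at chr13:62888283-62888532 on the minus strand.
G6pc: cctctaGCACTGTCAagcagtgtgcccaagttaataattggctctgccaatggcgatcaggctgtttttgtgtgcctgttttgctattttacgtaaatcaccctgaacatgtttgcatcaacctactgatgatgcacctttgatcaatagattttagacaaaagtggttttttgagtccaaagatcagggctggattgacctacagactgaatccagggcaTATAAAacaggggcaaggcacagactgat
Pck1: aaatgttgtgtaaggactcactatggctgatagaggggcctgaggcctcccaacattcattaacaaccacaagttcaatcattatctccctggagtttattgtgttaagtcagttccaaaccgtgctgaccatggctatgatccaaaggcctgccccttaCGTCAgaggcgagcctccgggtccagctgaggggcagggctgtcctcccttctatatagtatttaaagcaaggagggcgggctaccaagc
Fbp1: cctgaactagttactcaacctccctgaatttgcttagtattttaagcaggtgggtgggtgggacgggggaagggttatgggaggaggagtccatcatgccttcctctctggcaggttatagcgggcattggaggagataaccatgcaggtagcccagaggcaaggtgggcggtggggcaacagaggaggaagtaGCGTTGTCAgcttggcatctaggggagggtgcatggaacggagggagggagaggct

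In G6pc, TATAAA began at position -29 and a reverse match to TGACNNNGC at -244, where -1 is the base just before the start. In Pck1, the reverse of TGACG began at -90, and in Fbp1 a reverse match to TGACNNNGC began at -56. Of the other windows, that of Pygl and 2 of the 3 alternative windows of Slc37a4 also held TGACG on either strand, the remaining Slc37a4 window held TATAAA at -32, and those of Slc2a2 and Ppp1r3c held none of the 5 motifs. TGACGTCA and GTAAACA were in none of the 7 genes' windows. Among 32851 windows of the same length, 1.79% held TGACGTCA, 20.8% TGACG, 3.65% GTAAACA, 12.4% TGACNNNGC and 13.6% TATAAA. A match describes letters and is not evidence that a factor binds.

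Totals were 1875314 to 15426566 counts in cont., 1945469 to 3675041 in Atg7-KO and 713835 to 792366 in S351A, so depth and the p62 mutation cannot be told apart. By Xist and Y-linked transcripts, females made up 1 of the 3 cont. livers, 2 of the 3 Atg7-KO livers and 2 of the 3 S351A livers. CPM stands here for counts per 1e6 counts on edgeR's TMM scale, a robust correction of library size. Atg7 itself measured 42.1 to 57.3 CPM in the cont. livers, 27.8 to 29.9 in Atg7-KO livers and 21.7 to 24.7 in S351A livers, without overlap between cont. and either group. A count over the whole gene also takes in exons outside the deletion and cells without Cre. Of 9 listed hepatocyte markers, 8 were in the table, and their summed level spanned 49425 to 106941 CPM in cont. livers, 35038 to 41621 in Atg7-KO livers and 33159 to 46042 in S351A livers, with none at 0 in any library. All 7 tested ductular markers were called higher in Atg7-KO and in S351A, as were 10 and 8 of 15 macrophage markers (with 1 lower in Atg7-KO), 6 and 6 of 8 stellate and matrix markers, and 9 and 7 of 9 proliferation markers. Of 8 endothelial markers, 1 was called higher and 3 lower in Atg7-KO, and 1 higher and 1 lower in S351A. In bulk RNA, fewer hepatocytes and less RNA of a gene per hepatocyte cannot be told apart. One library stood apart: S351A replicate 1 held 341 CPM of 6 kidney markers, led by Kap, Umod and Slc34a1, against 76.4 and 22.1 CPM in the other S351A libraries and 0 to 34.7 CPM elsewhere. Kidney also expresses gluconeogenic genes, so the members' changes in S351A against cont. are given with and without this library. So are those of other named genes that lose a call without it. Ratios, and some differences between S351A and Atg7-KO, are given with it alone.

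Most of the 9 transcripts were lower in Atg7-KO livers. Relative to cont., 8 of the 9 genes fell on the TMM scale (edgeR's quasi-likelihood test, adjusted p under 0.05 and fold change above 1.5), while 18.1% of all tested genes were called lower, and when libraries were scaled to the hepatocyte markers instead 2 of the 9, G6pc and Ppp1r3b, were called lower, beside 2.32% of all tested genes, and Slc37a4, Slc2a2 and Gys2 turned to small positive values. G6pc, the last step of glucose production, and Ppp1r3b, the main hepatic glycogen-targeting subunit, fell most, by 10.5-fold and 7.31-fold. The libraries of the groups did not overlap for 7 genes, all lower in Atg7-KO, as for 24.9% of all tested genes. The median log2 fold change was -1.26 over the 9 genes, -0.03 over all tested genes and -1.22 over the 8 hepatocyte markers, of which 7 were called lower. The part of the lower hepatocyte marker level in these changes was not tested.

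**Figure D1:**
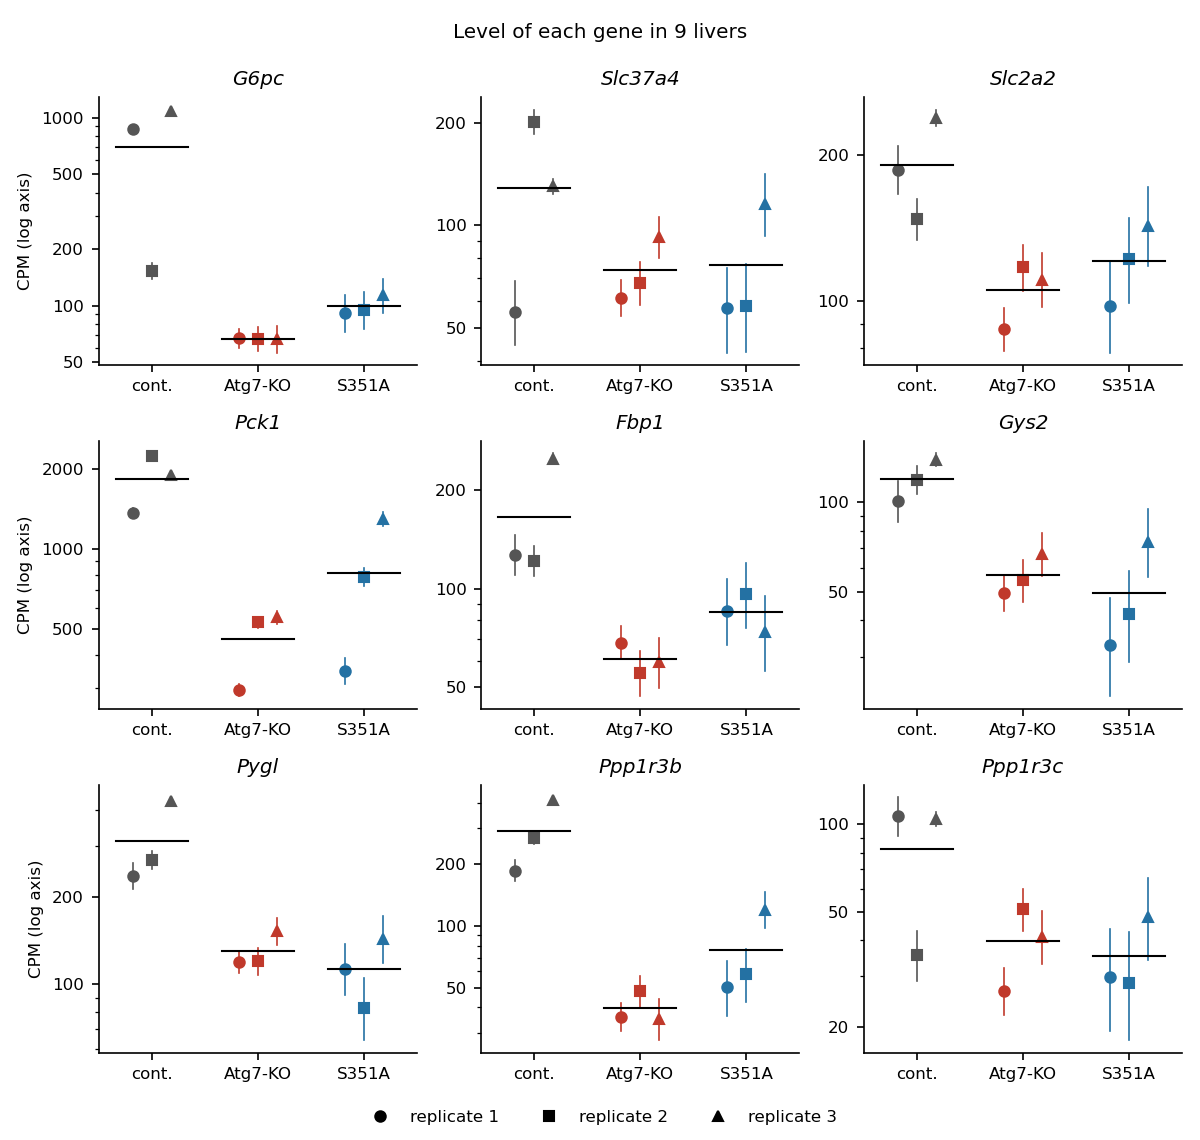
Level of each gene in each of the 9 livers, in CPM on a log axis, with symbols for replicate numbers, vertical lines for the 95% counting interval and a horizontal bar for the group mean. G6pc ran from 153 to 1088 CPM in cont. and stayed between 66.7 and 67.3 CPM in Atg7-KO, and Slc37a4 overlapped between all 3 groups.

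G6pc (chr11:101367561-101377903, plus strand, GENCODE M21 on mm10) encodes the catalytic subunit of glucose 6-phosphatase, whose loss causes glycogen storage disease. Its level was 868, 153 and 1088 CPM in cont. replicates 1 to 3, 67.3, 66.7 and 66.8 in Atg7-KO, and 91.3, 94.9 and 114 in S351A. Replicate 2 of cont. was far below the other 2 cont. livers, yet every cont. liver lay above every liver of the other groups, and every S351A liver lay above every Atg7-KO liver. Relative to cont., log2 fold change was -3.39 (SE 0.53, edgeR adjusted p = 0.000422) in Atg7-KO and -2.81 (SE 0.53, edgeR adjusted p = 0.00225) in S351A, or -2.76 (edgeR adjusted p = 0.0155) without S351A replicate 1. S351A exceeded Atg7-KO by 0.58, with a 95% interval from -0.52 to 1.68 and an edgeR adjusted p of 0.882, or by 0.64 without S351A replicate 1. The call in Atg7-KO and the call in S351A held under each of 19 alternatives. Among the 9 genes, G6pc had the largest biological coefficient of variation, 43.0% against a median of 22.0% over all tested genes. The Atg7-KO values lay closer together than their counting error, since the 95% counting interval of replicate 3 alone spanned 56.4 to 78.5 CPM. The time of day and the hours since feeding at sampling were not given in the sources used here.

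Slc37a4 (chr9:44396852-44402968, plus strand) encodes the transporter that feeds glucose 6-phosphatase. It was at 55.6, 201 and 130 CPM in cont., 61.3, 67.7 and 92.2 in Atg7-KO, and 57.0, 57.9 and 115 in S351A. The lowest library of all was a cont. one, so the groups overlapped in each comparison. It was the only member without a call in Atg7-KO (log2 fold change -0.82, SE 0.40, edgeR adjusted p = 0.123), and it was not called in S351A (-0.76, SE 0.41, edgeR adjusted p = 0.187, or -0.60 without S351A replicate 1). Without cont. replicate 1 both passed, at -1.19 (edgeR adjusted p = 0.0138) and -1.13 (edgeR adjusted p = 0.0261). The miRNA gene Mir7085 lies within its bounds.

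Slc2a2 (chr3:28697903-28731359, plus strand) encodes GLUT2, the bidirectional glucose carrier of the hepatocyte surface. Its levels were 187, 148 and 239 CPM in cont., 87.8, 118 and 111 in Atg7-KO, and 98.1, 122 and 143 in S351A. All livers with Cre lay below all cont. livers, the nearest being S351A replicate 3 at 143 and cont. replicate 2 at 148. The gene fell 1.82-fold in Atg7-KO (log2 fold change -0.86, SE 0.24, edgeR adjusted p = 0.0122), a call lost without Atg7-KO replicate 1 (-0.75, edgeR adjusted p = 0.0703). In S351A the difference of -0.66 (SE 0.24) missed the threshold (edgeR adjusted p = 0.0574). It was -0.54 (edgeR adjusted p = 0.193) without S351A replicate 1, and it passed without cont. replicate 2 (-0.83, edgeR adjusted p = 0.0267) or S351A replicate 3 (-0.82, edgeR adjusted p = 0.0404), and with a replicate block (-0.66, edgeR adjusted p = 0.0400). An antisense transcript, 1700112D23Rik, overlaps the gene, and the strand setting of the counts was not given.

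Pck1 (chr2:173153048-173159273, plus strand) encodes cytosolic phosphoenolpyruvate carboxykinase, which commits oxaloacetate to gluconeogenesis. It was the most abundant of the 9 transcripts per kilobase in every group and took 36.4% to 62.9% of their summed counts in a library. Its levels were 1364, 2236 and 1897 CPM in cont., 295, 530 and 554 in Atg7-KO, and 348, 789 and 1302 in S351A. The Atg7-KO livers were all far below cont., whereas the S351A livers stretched from the Atg7-KO range almost to the lowest cont. liver. Pck1 fell 3.99-fold in Atg7-KO (log2 fold change -2.00, SE 0.43, edgeR adjusted p = 0.00303). In S351A the difference was -1.17 (SE 0.42, edgeR adjusted p = 0.0540), which did not pass. It depended on single livers, with -0.82 (edgeR adjusted p = 0.152) without S351A replicate 1. It passed without cont. replicate 1 (-1.37, edgeR adjusted p = 0.0403) or S351A replicate 3 (-1.71, edgeR adjusted p = 0.0120), and with a replicate block (-1.32, edgeR adjusted p = 0.00417). S351A exceeded Atg7-KO by 0.82, with a 95% interval from -0.09 to 1.73 (edgeR adjusted p = 0.816), or by 1.18 without S351A replicate 1.

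Fbp1 (chr13:62864753-62888282, minus strand) encodes fructose 1,6-bisphosphatase, the regulated step between triose and hexose phosphates. It was at 127, 122 and 249 CPM in cont., 68.4, 55.2 and 59.5 in Atg7-KO, and 85.5, 96.2 and 73.5 in S351A. The 3 groups did not overlap, with S351A between the others. The gene fell 2.73-fold in Atg7-KO (log2 fold change -1.45, SE 0.28, edgeR adjusted p = 0.00147) and 1.96-fold in S351A (-0.97, SE 0.28, edgeR adjusted p = 0.0222). The call in S351A was lost without cont. replicate 3 (-0.56, edgeR adjusted p = 0.0645), without S351A replicate 1 (-0.99, edgeR adjusted p = 0.0682) and without S351A replicate 3 (-0.90, edgeR adjusted p = 0.0597). The difference between S351A and Atg7-KO was 0.48, with a 95% interval from -0.14 to 1.1 (edgeR adjusted p = 0.838), or 0.47 without S351A replicate 1.

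Gys2 (chr6:142422613-142473109, minus strand) encodes liver glycogen synthase. Its levels were 101, 119 and 139 CPM in cont., 49.3, 54.5 and 66.8 in Atg7-KO, and 33.1, 41.9 and 73.5 in S351A. Both groups with Cre lay wholly below cont., and they overlapped each other. The gene fell 2.12-fold in Atg7-KO (log2 fold change -1.08, SE 0.26, edgeR adjusted p = 0.00618) and 2.43-fold in S351A (-1.28, SE 0.28, edgeR adjusted p = 0.00524, or -1.07 with edgeR adjusted p = 0.0285 without S351A replicate 1).

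Pygl (chr12:70190811-70231488, minus strand) encodes liver glycogen phosphorylase, which releases glucose 1-phosphate from glycogen. It was at 237, 270 and 431 CPM in cont., 120, 120 and 153 in Atg7-KO, and 113, 82.6 and 143 in S351A. Again every liver with Cre was below every cont. liver. Pygl fell 2.39-fold in Atg7-KO (log2 fold change -1.26, SE 0.28, edgeR adjusted p = 0.00341) and 2.77-fold in S351A (-1.47, SE 0.28, edgeR adjusted p = 0.00260, or -1.48 with edgeR adjusted p = 0.0148 without S351A replicate 1). The noncoding gene F730035M05Rik overlaps it on the other strand.

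The synthase and the phosphorylase both fell. Their ratio within a library, Gys2 to Pygl per kilobase, does not depend on how libraries are scaled. It was 0.837 to 1.14 in cont., 1.07 to 1.17 in Atg7-KO and 0.760 to 1.33 in S351A. The ranges overlapped in each comparison (exact permutation test, p = 0.6 in both comparisons with cont. and 1 between the groups with Cre). With 3 livers a group this test cannot go below 0.1, so it does not show that the ratio was kept.

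Ppp1r3b (chr8:35375739-35388139, plus strand) encodes the G(L) subunit, which brings protein phosphatase 1 to hepatic glycogen and favours its storage. Its levels were 186, 270 and 413 CPM in cont., 35.9, 48.1 and 34.98 in Atg7-KO, and 50.2, 57.9 and 120 in S351A. The groups did not overlap, and S351A lay between the others. The gene fell 7.31-fold in Atg7-KO (log2 fold change -2.87, SE 0.37, edgeR adjusted p = 0.000106) and 3.82-fold in S351A (-1.93, SE 0.36, edgeR adjusted p = 0.00227, or -1.72 with edgeR adjusted p = 0.0152 without S351A replicate 1). As for G6pc, both calls held under each of 19 alternatives. The antisense noncoding gene Gm45469 overlaps it.

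Ppp1r3b was also low relative to the synthase its phosphatase acts on. Within a library, its level per kilobase relative to that of Gys2 was 0.788, 0.969 and 1.27 in cont., 0.312, 0.377 and 0.224 in Atg7-KO, and 0.649, 0.591 and 0.698 in S351A. The 3 groups did not overlap. The exact permutation test gave p = 0.1 in each of the 3 comparisons, the smallest value that 3 livers against 3 can give, or 0.1625 after adjustment over the 39 ratio tests made.

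Ppp1r3c (chr19:36731731-36736653, minus strand) encodes PTG, a glycogen-targeting subunit found in many tissues. It was at 107, 35.3 and 104 CPM in cont., 26.7, 51.0 and 40.9 in Atg7-KO, and 29.7, 28.4 and 47.8 in S351A. Replicate 2 of cont., which was also the cont. liver with the lowest G6pc, lay inside the range of both other groups. The calls were correspondingly weak, with log2 fold change -1.06 (SE 0.38, edgeR adjusted p = 0.0413) in Atg7-KO and -1.22 (SE 0.41, edgeR adjusted p = 0.0433) in S351A. Both were lost without cont. replicate 1 (-0.88 and -1.04, edgeR adjusted p = 0.108 and 0.0974) or without cont. replicate 3 (-0.83 and -0.99, edgeR adjusted p = 0.129 and 0.126). Without S351A replicate 1 the values were -1.07 (edgeR adjusted p = 0.0512) and -1.12 (edgeR adjusted p = 0.140). The call in Atg7-KO was also lost without Atg7-KO replicate 1 (-0.83, edgeR adjusted p = 0.166), Atg7-KO replicate 3 (-1.10, edgeR adjusted p = 0.0945) or S351A replicate 2 (-1.08, edgeR adjusted p = 0.0506), and the call in S351A without S351A replicate 2 (-1.11, edgeR adjusted p = 0.142) or Atg7-KO replicate 3 (-1.24, edgeR adjusted p = 0.0586). In all, 12 of 19 alternatives ended the call in Atg7-KO and 10 of 19 that in S351A.

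**Figure D2:**
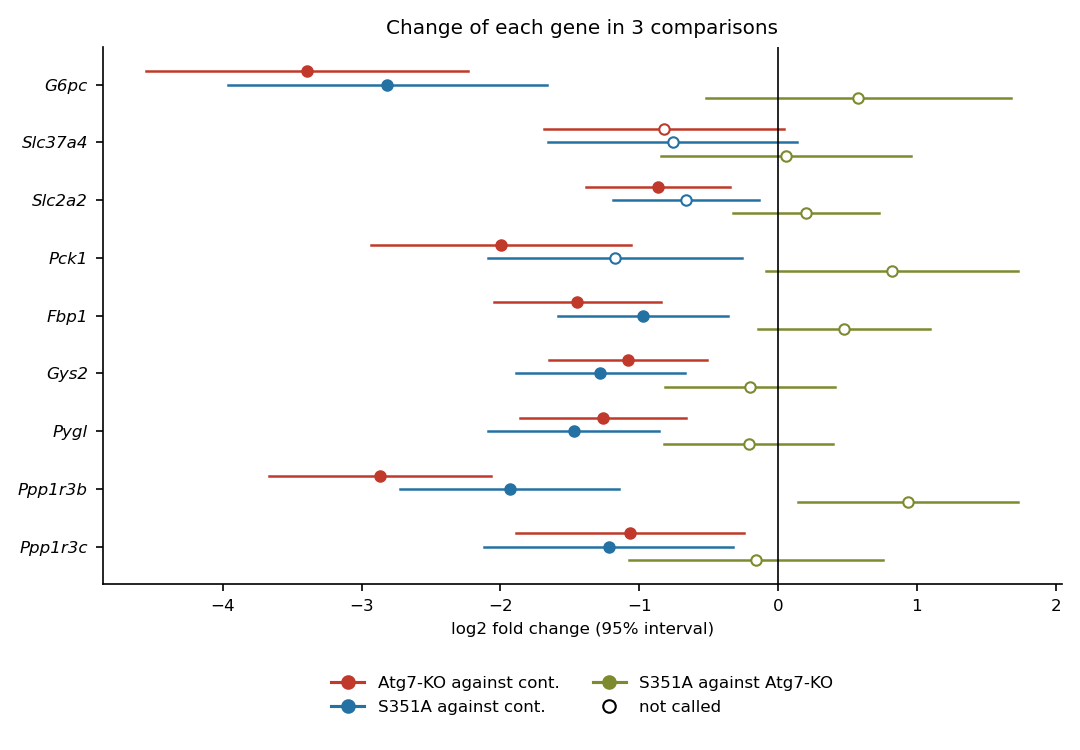
Log2 fold change of each gene with its 95% interval in 3 comparisons, filled where called and open where not. The G6pc interval for Atg7-KO against cont. runs from -4.55 to -2.23, and in the comparison of S351A with Atg7-KO only the Ppp1r3b interval, from 0.14 to 1.73, lies clear of 0.

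In S351A livers 6 of the 9 genes were called lower than in cont. (13% of all tested genes were), namely G6pc, Ppp1r3b, Pygl, Gys2, Ppp1r3c and Fbp1, and of all 9 the values of Slc37a4, Slc2a2 and Fbp1 turned positive under hepatocyte-marker scaling. Without S351A replicate 1, 4 were called, the first 4 of those named, and the share of all tested genes called lower went from 13% to 7.63%. The libraries did not overlap for 7 genes, all lower, as for 18.4% of all tested genes. The median log2 fold change was -1.22 over the 9 genes and -1.12 over the hepatocyte markers. Within S351A, replicate 3 was the highest library for 8 of the 9 genes, Fbp1 being the exception. That library also had the highest hepatocyte marker sum of the group (46042 CPM) and the lowest kidney marker sum (22.1 CPM), and their part in the result was not tested.

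Between S351A and Atg7-KO no member was called by edgeR's quasi-likelihood test, which called 0.00893% of all tested genes, a single one, or by DESeq2, which called 23 genes higher and 17 lower (0.357%). At an unadjusted p under 0.05 there was 1 member, Ppp1r3b (log2 fold change 0.94, edgeR adjusted p = 0.715, or 1.16 without S351A replicate 1), where 6.6% of tested genes passed. The libraries of G6pc, Fbp1 and Ppp1r3b did not overlap and were higher in S351A, as were those of 7.67% of tested genes. For Gys2, Pygl, Ppp1r3c, Slc2a2 and Slc37a4 the differences were -0.20, -0.21, -0.16, 0.20 and 0.06. Their 95% intervals were all wide, the widest from -1.07 to 0.76 for Ppp1r3c and the narrowest from -0.32 to 0.73 for Slc2a2. Both comparisons with cont. share the same control livers, so likeness between them is not independent.

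**Figure D3:**
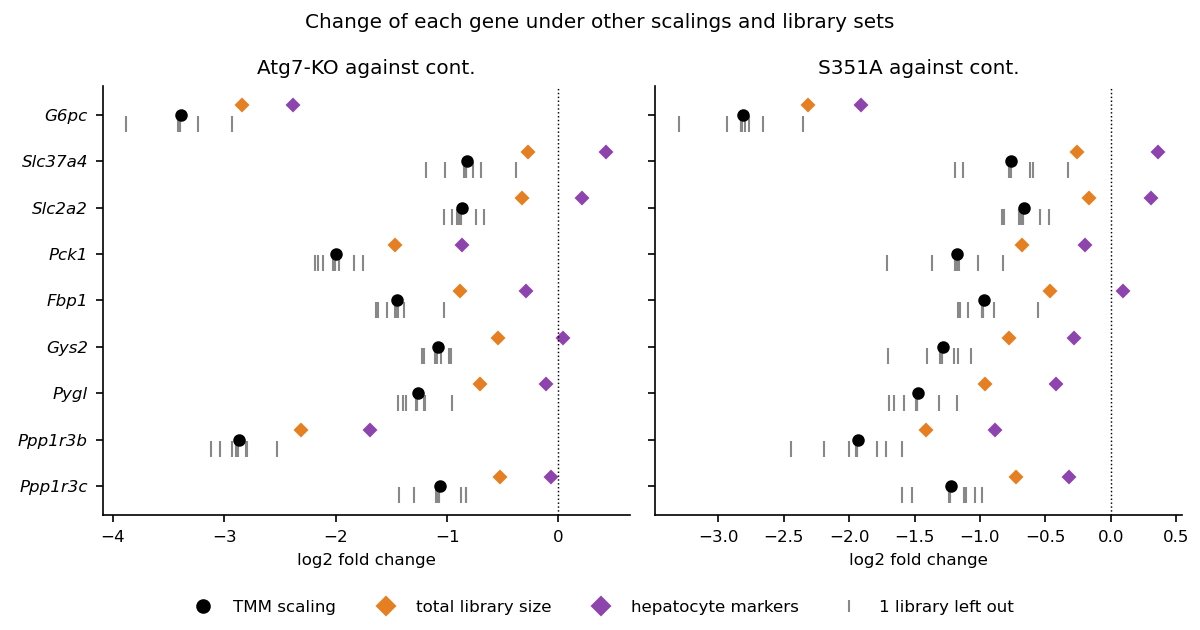
Log2 fold change of each gene against cont. under TMM scaling (black), total library size (orange), scaling to 8 hepatocyte markers (purple) and with 1 library left out (grey ticks), for Atg7-KO on the left and S351A on the right. Under hepatocyte-marker scaling G6pc stayed at -2.39 and Ppp1r3b at -1.69 in Atg7-KO, and Slc37a4 moved to 0.42.

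Scaling set how much of the fall remained. Total library size moved the median of all genes by 0.55 in Atg7-KO and 0.49 in S351A, and the geometric mean of the hepatocyte markers, a scaling chosen after the data were seen, moved it by 1.13 and 1.03. Relative to hepatocyte markers, G6pc remained lower, at -2.39 in Atg7-KO and -1.91 in S351A, and Ppp1r3b at -1.69 and -0.88, all of them calls. Pck1 was at -0.87 (edgeR adjusted p = 0.0636) and -0.20, Pygl at -0.11 and -0.42, and Gys2 at 0.04 and -0.28, none of them calls. G6pc and Ppp1r3b thus fell further than these markers did, and for the other 7 genes no difference from those markers passed the test.

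The order of levels was not the same in each group. Per kilobase of exon on the TMM scale, the cont. order was Pck1 (534 ± 128 CPM per kb, SD), G6pc (291 ± 202), Fbp1 (97.4 ± 42.2), Ppp1r3b (46.6 ± 18.4), Pygl (45.3 ± 15.1), Slc37a4 (45.2 ± 25.5), Gys2 (45.0 ± 7.15), Slc2a2 (33.3 ± 7.98) and Ppp1r3c (30.1 ± 14.9). Of the 8 neighbouring pairs, 7 overlapped in their livers, and only Fbp1 stood clear of Ppp1r3b. In Atg7-KO Pck1 still led (134 ± 41.7), G6pc stood behind Fbp1 (27.7 ± 0.133 against 35.9 ± 3.95), and Ppp1r3b was last (6.38 ± 1.18), below every liver's Ppp1r3c (14.5 ± 4.47). In S351A Ppp1r3b was at 12.2 ± 6.16, last again but overlapping Ppp1r3c at 12.9 ± 3.99. Together the 9 genes took 0.273% to 0.342% of a cont. library's counts, 0.0958% to 0.133% in Atg7-KO and 0.1002% to 0.244% in S351A.

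Across the 9 libraries the log2 levels of the 36 pairs of members had a median Pearson r of 0.77, from 0.14 (Slc37a4 with Ppp1r3c) to 0.93 (Gys2 with Pygl). With group means removed the median was 0.42, and the range ran from -0.51 (G6pc with Slc37a4) to 0.88 (Pck1 with Gys2). These values are descriptions, since libraries share groups, depth and sex. Outside the 9 genes, the closest patterns among 6492 genes of at least 20 CPM were Cyp7b1 (r = 0.99), Hao1 (0.98) and Slc25a25 (0.98) for G6pc. For Pck1 they were Upp2 (0.99), Osbpl1a (0.98) and Psmd12 (0.98), and for Ppp1r3b Scrn3 (0.99), Ivd (0.99) and Cyp2c50 (0.99). For Pygl, Gc, the vitamin D-binding protein, was among the first 3 (0.98).

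Some genes related to the members were higher. These 9 relatives were picked after their values were seen, and 7 of them were called higher in Atg7-KO and 4 in S351A, beside 19.9% and 15.6% of all tested genes. Pygb, the brain glycogen phosphorylase, was at 1.26, 1.398 and 3.56 CPM in cont. and at 30.9, 34.2 and 28.6 in Atg7-KO, a log2 rise of 3.57 (SE 0.32, edgeR adjusted p = 9.0e-06). S351A livers held 13.7, 17.3 and 18.4 CPM, between the other groups and without overlap with either (2.64 against cont., SE 0.38, edgeR adjusted p = 0.000414). Both rises of Pygb were called under each of 19 alternatives. Pck2, the mitochondrial carboxykinase, rose by 1.59 in Atg7-KO and 1.32 in S351A, and Slc2a1 (GLUT1) by 0.90 and 0.82. Of 19 alternatives, Pck2 was called in 18 and 17, and Slc2a1 in 19 and 17. Slc37a1, Slc37a2 and Slc37a3, sugar phosphate carriers related to Slc37a4, rose by 1.78, 1.52 and 1.05 in Atg7-KO, and in S351A only Slc37a2 was called (1.75). Without S351A replicate 1 the calls of Pck2 (1.18, edgeR adjusted p = 0.0578), Slc2a1 (0.76, edgeR adjusted p = 0.0503) and Slc37a2 (1.69, edgeR adjusted p = 0.0508) in S351A were lost, and that of Pygb held (2.75). Ppp1r3g, another targeting subunit, rose by 2.77 in Atg7-KO (SE 0.79, edgeR adjusted p = 0.0150), a call lost without Atg7-KO replicate 3. These rises kept their sign under every alternative that gave a value. Not every related form was called. Gys1, the muscle synthase, was at -0.06 and 0.43, and G6pc3, the ubiquitous phosphatase, at 0.04 and 0.13, with no call. For Gys1 in Atg7-KO and G6pc3 in both groups the sign varied with the alternative. G6pc3 was called in 1 of 19 alternatives in Atg7-KO, and Gys1 in 1 of the 17 that gave a value in S351A.

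**Figure D4:**
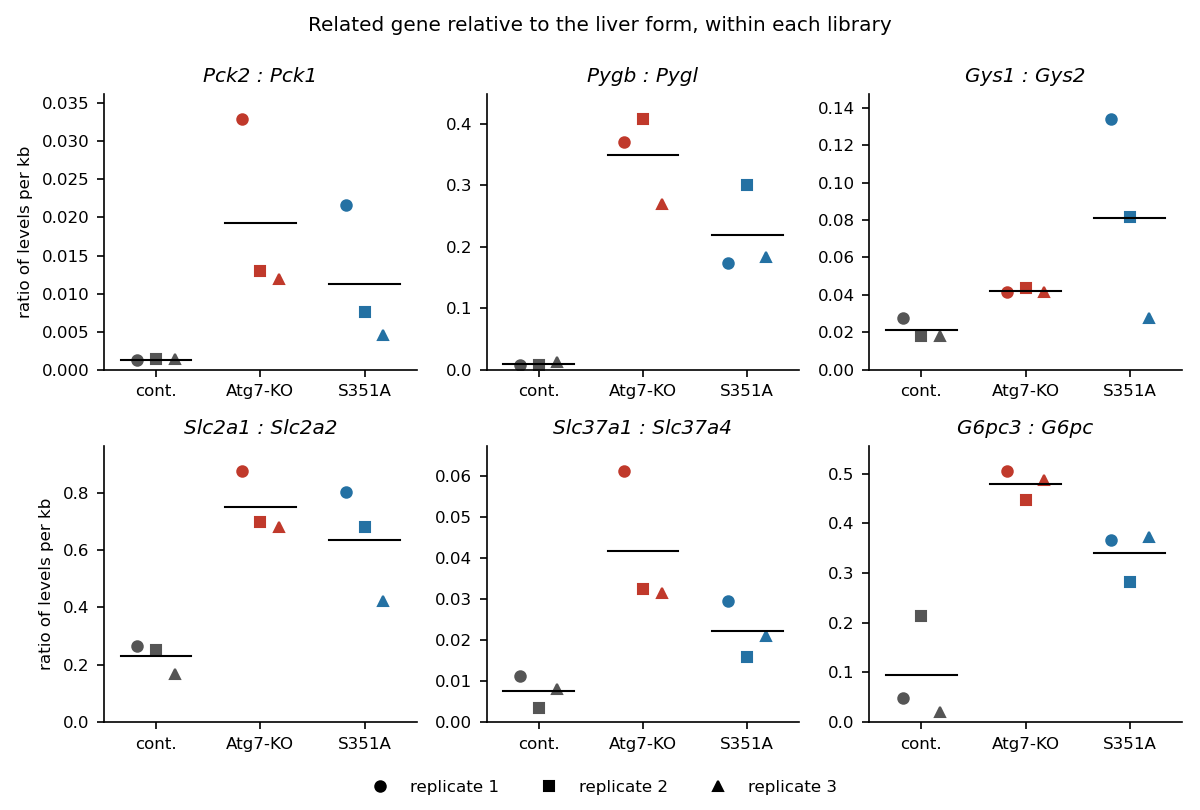
Level per kilobase of a related gene divided by that of the liver gene in the same library, on linear axes, with symbols for replicates and bars for group means. Pygb to Pygl was at most 0.0118 in cont. and 0.269 to 0.407 in Atg7-KO, and Pck2 to Pck1 was at most 0.00142 in cont. and 0.0119 to 0.0329 in Atg7-KO.

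Ratios within a library put both sides together without any scaling. Pygb to Pygl averaged 0.00897 over the cont. livers, 0.349 over the Atg7-KO livers and 0.219 over the S351A livers. Slc2a1 to Slc2a2 went from 0.229 ± 0.0533 (SD, n = 3) in cont. to 0.750 ± 0.108 and 0.634 ± 0.194. In these ratios both Cre groups lay wholly above cont., each at an exact permutation p of 0.1, the smallest possible, or 0.1625 after adjustment over 39 ratio tests. Liver forms stayed the more abundant in each of the 4 pairs Pck1, Pygl, Slc2a2 and Gys2 with their relatives. Ppp1r3g to Ppp1r3b was at 0.429, 0.427 and 1.38 in Atg7-KO replicates 1 to 3, so Ppp1r3g was the more abundant in replicate 3. Biliary cells, macrophages and dividing cells use several of these related forms, and the markers of all 3 kinds were higher in the same livers, with summed ductular markers of 58.4 to 137 CPM in cont., 971 to 1351 in Atg7-KO and 856 to 1352 in S351A. Their part in these ratios was not tested.

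The wider pathway was covered by 7 lists of 111 further genes, of which 110 were in the table and 97 were tested. In Atg7-KO, 16 were called higher (16.5% of the 97, beside 19.9% of all tested genes) and 27 lower (27.8%, beside 18.1%), a split that turned to 34 higher and 15 lower under total library size and to 48 and 5 under hepatocyte-marker scaling. Those scalings called 38.3% and 59.3% of all tested genes higher and 7.15% and 2.32% lower. The median log2 fold change over the 97 was -0.22. Genes that bring substrates into gluconeogenesis, such as aminotransferases and amino acid carriers, had the most calls of the 7 lists on the lower side, 11 of 18 tested with 1 higher and a median of -1.28. In the list of gluconeogenic enzymes and glucose exit outside the 9 members, 6 of 16 were called higher and 2 lower (median 0.07). In hormonal and transcriptional control 3 of 28 were higher and 9 lower (median -0.40), and in glucose use and the fed state 1 of 11 was higher and 5 lower (median -0.87). The 3 glycogen lists, synthesis, breakdown and phosphatase with quality control, held 9, 11 and 4 tested genes, with 2, 2 and 1 called higher and none lower on the TMM scale. Their medians were 0.52, 0.03 and 0.26.

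**Figure D5:**
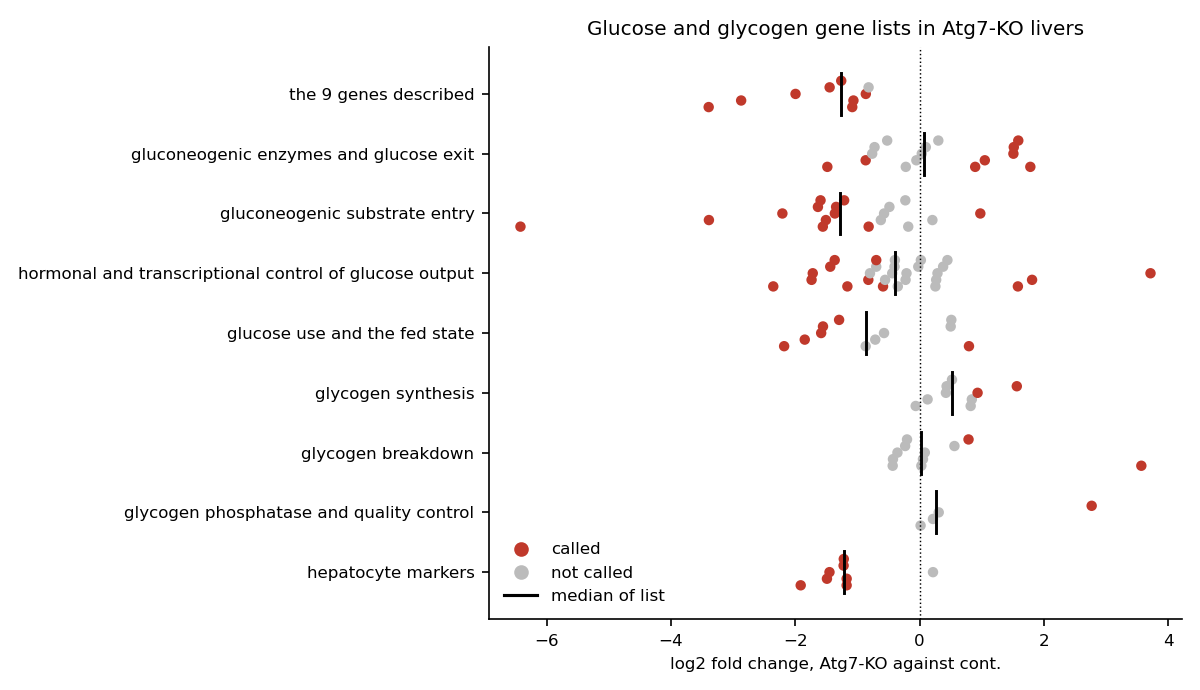
Log2 fold change in Atg7-KO against cont. on the TMM scale for the 9 genes, 7 further lists and the hepatocyte markers, with called genes in red, others in grey and the list median as a black bar. Substrate entry has a median of -1.28, near that of the hepatocyte markers (-1.22), and Slc1a2 lies farthest to the left at -6.42.

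By the rule for naming pathway genes, rises in Atg7-KO included those of Pygb, Ppp1r3g, Sik1, a kinase that restrains the CREB coactivator CRTC2 (log2 fold change 1.81, edgeR adjusted p = 0.0168), and Slc37a1. The largest falls were those of Slc1a2, a glutamate carrier (-6.42, edgeR adjusted p = 1.6e-05), Tat, the tyrosine aminotransferase induced by glucocorticoids (-3.39, edgeR adjusted p = 0.000647), and Adra1b, the alpha-1B adrenergic receptor (-2.35, edgeR adjusted p = 6.9e-05). Gpt, an alanine aminotransferase, followed (-2.21, edgeR adjusted p = 0.00124), with Mlxipl, which encodes the glucose sensor ChREBP (-2.18, edgeR adjusted p = 0.000827). Sik1 lost its call without Atg7-KO replicate 1 (1.70, edgeR adjusted p = 0.0547).

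In S351A against cont., 12 of the 97 were called higher (12.4%, beside 15.6% of all tested genes) and 23 lower (23.7%, beside 13%), a split of 27 and 9 under total library size and of 42 and 3 under hepatocyte-marker scaling. Those scalings called 31.2% and 50.3% of all tested genes higher and 4.57% and 1.17% lower. Without S351A replicate 1 there were 17 calls in place of 35, and without S351A replicate 2 there were 22, while the share of all tested genes called in either direction went from 28.6% to 18% and 18.4%. Named rises included Pygb, Sik1 (1.54, edgeR adjusted p = 0.0483), Igfbp1, an insulin-repressed secreted protein (1.52, edgeR adjusted p = 0.00424), and Pgm2l1, a phosphoglucomutase relative (1.39, edgeR adjusted p = 0.0163). Without S351A replicate 1, Pgm2l1 lost its call (1.13, edgeR adjusted p = 0.0929). Sik1 lost its call in 8 of 19 alternatives, the omission of any library but cont. replicates 2 and 3 among them. Named falls were Slc1a2 (-3.52, edgeR adjusted p = 0.000708), Tat (-2.74, edgeR adjusted p = 0.00347) and Mlxipl (-1.99, edgeR adjusted p = 0.00247). They also included Nr0b2, the nuclear receptor SHP that represses bile acid and gluconeogenic genes (-1.71, edgeR adjusted p = 0.00963), and Adra1b (-1.64, edgeR adjusted p = 0.00147). Nr0b2 and Adra1b each lost their call in 1 of 19 alternatives.

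Between S351A and Atg7-KO none of the 97 was called by edgeR's quasi-likelihood test, with 10 at an unadjusted p under 0.05 and 1, Slc1a2, called by DESeq2. Slc1a2 was at 102, 320 and 147 CPM in cont., 1.61, 2.85 and 2.27 in Atg7-KO, and 6.84, 8.63 and 34.3 in S351A. Every S351A liver was above every Atg7-KO liver, with a log2 difference of 2.90 and an edgeR adjusted p of 0.364, and every one stayed below cont. The circadian clock also sets glucose genes by time of day. Of 11 tested clock genes, core components and outputs together, 5 were called lower in Atg7-KO (beside 18.1% of all tested genes). In S351A 4 of 11 were called lower (beside 13%), and none was called higher in either group. The core components Arntl (-1.23) and Clock (-1.04) were among the calls in Atg7-KO, and the output gene Dbp (0.56) was not. The clock genes' summed level spanned 475 to 535 CPM in cont. livers, 236 to 333 in Atg7-KO livers and 195 to 331 in S351A livers. Their part in the results was not tested.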

How the data were processed

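The authors trimmed reads with Trim Galore, mapped them to mm10 with STAR and estimated gene expression with RSEM; tool versions, annotation and strand setting were not given in the sources used here. The deposited table holds RSEM expected counts per gene symbol, unscaled and 1 column per mouse, and 4.40% to 7.75% of a library's values were not whole. The study tested them with DESeq2 at a fold change of 1.5 and a false discovery rate of 0.05.

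Expected counts were rounded to whole numbers, and R 4.3.3 with edgeR 4.0.16 was used. After filterByExpr (minimum count 10, minimum total 15), 11199 genes remained. TMM factors scaled the libraries, a single quasi-likelihood model with 3 group terms used the 9 libraries together, and p-values were adjusted by Benjamini-Hochberg over the 11199 genes. A gene was called at an adjusted p under 0.05 and a fold change above 1.5. Standard errors are those implied by the F statistic, and intervals are at 95%. CPM are on the TMM scale. Levels per kilobase used the exon length of GENCODE M21, in which 23376 of 24411 symbols were found. Ratios were compared by 2-sided exact permutation of the log2 ratio with 0.5 added to both counts. Intervals of a single library reflect counting alone, as reads carried no molecular identifiers and may repeat a molecule. A count of 3 corresponds to 0.267 to 3.70 CPM. As each replicate is a numbered mouse in the labels, p-values measure the spread between these mice.

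The 9 genes, the lists and the markers were chosen with earlier results of these data known. Named pathway genes were the 5 called genes per comparison and direction of largest log2 fold change whose higher group averaged 10 CPM or more and whose libraries did not overlap; some genes that these rules name are not reported here. Genes of like pattern were the 3 with the highest Pearson r over 9 libraries among genes of at least 20 CPM. Alternatives were total library size, RLE factors, a library size that leaves out the 20 most counted genes, no filter, no fold minimum, DESeq2 1.42.0, the 6 compared libraries alone, a replicate block, sex as a covariate, thinning to 713835 counts and leaving out each library in turn. Scaling to hepatocyte markers, and other scalings of the level order, were added after seeing the data. The 19 alternatives behind a gene's log2 fold change are these with hepatocyte-marker scaling and without the dropped fold minimum, which bears on counts of calls alone.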

Additional observations from a re-analysis of the deposited data

How the results depend on the processing

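The count of members called in Atg7-KO against cont. was 8. It was 5 with total library size and 5 with a library size that leaves out the 20 most counted genes. Hepatocyte-marker scaling, which was added after seeing the data, gave 2. Of all tested genes, 18.1%, 7.15%, 8.72% and 2.32% were called lower in these 4 settings. With 1 library left out the count was 6 to 8, beside 12.6% to 18.3% of all tested genes called lower. In S351A against cont. it was 6, with 2 under hepatocyte-marker scaling (13% and 1.17% of all tested genes). With 1 library left out it was 4 to 7 (7.51% to 14%). Between S351A and Atg7-KO it was 0 under every alternative. Pathway calls in S351A against cont. numbered 35, beside 28.6% of all tested genes called. They were 21 from the 6 compared libraries alone (19.5%) and 17 to 39 with 1 library left out (18% to 30.2%). Between S351A and Atg7-KO they numbered 0. There were 2 (Ldhb and Slc1a2) without the filter and 1 by DESeq2, beside 0.514% and 0.357% of all tested genes. Under hepatocyte-marker scaling these log2 fold changes reversed: in Atg7-KO Slc37a4 to 0.42, Gys2 to 0.041 and Slc2a2 to 0.21; in S351A against cont. Slc37a4 to 0.36, Fbp1 to 0.094 and Slc2a2 to 0.31; and between S351A and Atg7-KO Slc37a4 to -0.061. With 1 library left out, S351A against Atg7-KO ranged from -0.36 to 0.25 for Slc37a4, -0.60 to 0.024 for Gys2 and -0.44 to 0.068 for Ppp1r3c. Scaling moves all genes alike, and the cause of the other changes was not tested. Of 9 members, 2 in each comparison with cont., G6pc and Ppp1r3b, kept their side of the threshold under all 19 alternatives.

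Replicate numbers were not taken as a pairing, since the labels give them no shared origin and deviations of same-numbered libraries correlated over 0.1 in only 5 of 9 pairs (-0.041 to 0.31), against 2 of 18 pairs of different number (-0.26 to 0.21). The replicate 1 libraries, all male, gave the highest of these values (0.24 to 0.31). With a replicate block 7 members were called in Atg7-KO and 8 in S351A against cont., beside 18% and 13.8% of all tested genes called lower; Ppp1r3c lost its call in Atg7-KO (-0.97, edgeR adjusted p = 0.0525), and in S351A Pck1 (-1.32, edgeR adjusted p = 0.00417) and Slc2a2 (-0.66, edgeR adjusted p = 0.0400) gained one. The S351A libraries are the shallowest, with 23 to 39 counts behind Ppp1r3c.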

Other observations

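Of the genes described next, which carry hormone signals to glucose output, Gcgr and Crtc2 fell and the rest were not called. All were named after their values were seen. Gcgr, the glucagon receptor, was at 1322, 1035 and 785 CPM in cont., 323, 360 and 270 in Atg7-KO, and 269, 330 and 474 in S351A. All livers with Cre lay below all cont. livers, and Gcgr fell in both groups (log2 fold change -1.72, edgeR adjusted p = 0.000564, and -1.55, edgeR adjusted p = 0.00191). Crtc2, the CREB coactivator that glucagon switches on, fell as well (-1.37, edgeR adjusted p = 0.00525, and -1.06, edgeR adjusted p = 0.0392). Both genes' falls are on the TMM scale, beside 18.1% and 13% of all tested genes called lower. The hepatocyte markers had medians of -1.22 and -1.12 on that scale, and their part in these falls was not tested. Without S351A replicate 1 the fall of Gcgr in S351A held (-1.39, edgeR adjusted p = 0.0128) and that of Crtc2 lost its call (-0.78, edgeR adjusted p = 0.155). Insr, the insulin receptor, was at 179 to 217 CPM in cont., 241 to 246 in Atg7-KO and 209 to 259 in S351A, with no call. Foxo1, Ppargc1a and Hnf4a, transcriptional regulators of gluconeogenesis, were not called in either group, with log2 fold changes of -0.02, 0.26 and 0.38 in Atg7-KO. Their libraries overlapped those of cont.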
